A study of Mus musculus with 10 samples.

Results

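Signalling by Nodal and activin was followed through 9 genes of the pathway: the ligand Nodal, its secreted inhibitors Lefty1 and Lefty2, the co-receptor Tdgf1, the receptors Acvr1b, Acvr2a and Acvr2b, and the intracellular SMADs Smad2 and Smad7. They were chosen by symbol as members of 1 pathway, at a time when their differences between genotypes in these same libraries were already known. Their levels in the 3 genotypes are therefore given as a description with no p. Counts of members past a threshold, given beside the share of all tested genes, are part of that description. All 9 symbols were found among the 51467 genes counted, and all 9 passed the filter on low values (at least 3 CPM, counts scaled to the library total, in at least 3 libraries), as did 11683 genes in total. Each of the 9 reached 3 CPM in all 3 wild-type libraries, so none passed only through a knockout.

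Messenger RNA was measured in mouse embryonic stem cells (ESCs) by QuantSeq, which reads the end of each transcript next to the poly(A) tail. Wild-type cells (WT, 3 libraries) were compared with cells lacking DGCR8 (DGCR8 KO, 3 libraries), which cannot process most miRNA hairpins, and with cells lacking DDX6 (DDX6 KO, 4 libraries), an RNA helicase that acts with the miRNA silencing complex. All groups were grown in Knockout DMEM with 15% serum, LIF and 2i, the combination of PD0325901, which inhibits MEK, and CHIR99021, which inhibits GSK3. Per the study's methods the parental line of the DDX6 KO cells was V6.5, and the 4 DDX6 KO libraries came from 2 CRISPR clones with 2 libraries each. The study lists V6.5 as its wild-type line, and the DGCR8 KO line as one made earlier in the same laboratory. Line history and genotype cannot be told apart in DGCR8 KO against WT. The labels name 1 DGCR8 KO line with no separate clones, so the 3 DGCR8 KO libraries share that line, and nothing in the labels says that replicates came from separate cultures. The spread between libraries may therefore be technical in part.

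Nodal and activin are ligands of the TGF-β family. They bring together type II and type I receptor kinases, which phosphorylate SMAD2 and SMAD3. These enter the nucleus with SMAD4 and act on target genes, and Nodal also needs an EGF-CFC co-receptor such as TDGF1 (Cripto). Lefty1 and Lefty2 are target genes of the pathway whose products block Nodal, which makes them its feedback inhibitors. In the early embryo the pathway patterns the epiblast and the left-right axis, and in ESCs the ligand and its feedback inhibitors are expressed.

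Libraries held between 2131156 and 4745083 gene counts. At this depth 3 counts, taken as the floor, equalled 0.669 to 1.44 CPM after TMM scaling, the scale used for every level here. The transcript of the targeted gene was lower in each knockout: Dgcr8 stood at 20.6% of the WT mean in DGCR8 KO cells, and Ddx6 at 16.2% in DDX6 KO cells, with 149 and 135 CPM in clone 1 and 39.0 and 25.7 CPM in clone 2. Of 7 markers of naive pluripotency all 7 were tested, and their summed level was 3575 to 3954 CPM in WT, 3138 to 3555 CPM in DGCR8 KO and 3672 to 3985 CPM in DDX6 KO libraries. In each knockout some of these markers passed on the adjusted p as higher than WT and some as lower. The sums therefore do not show that the single markers were unchanged. Of 5 markers of the primed epiblast, Fgf5 had 0 counts in every library, and the sum of the list was 74.0 to 89.3 CPM in WT, 88.4 to 114.7 CPM in DGCR8 KO and 41.7 to 56.3 CPM in DDX6 KO libraries. The 6 primitive endoderm markers summed to 7.58 to 11.04 CPM in WT, 3.26 to 4.75 CPM in DGCR8 KO and 16.5 to 24.2 CPM in DDX6 KO libraries, and only Dab2 among them was tested. The 6 fibroblast markers summed to at most 9.52 CPM in any library. The primed epiblast sum in DDX6 KO and the primitive endoderm sum in both knockouts moved mainly with 1 gene each. Otx2 stood at 30.1 to 38.8 CPM in WT, 38.7 to 57.0 CPM in DGCR8 KO and 4.76 to 9.85 CPM in DDX6 KO, where the other 3 tested primed epiblast markers did not pass against WT. In DGCR8 KO the primed markers went different ways, and Otx2 and Sall2 did not pass against WT. Zic2 passed as higher there (27.7 to 38.0 CPM, WT 9.54 to 23.0 CPM). Pou3f1 passed as lower (2.71 to 6.11 CPM, WT 9.12 to 12.3 CPM). Dab2 stood at 3.57 to 8.16 CPM in WT, 0.339 to 1.63 CPM in DGCR8 KO and 12.03 to 19.05 CPM in DDX6 KO. The part of these markers in the levels below was not tested. In such bulk samples fewer cells of a type and less RNA per cell cannot be told apart.

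Of the 9 genes, Lefty1 and Lefty2 are those whose annotated 3′ UTR holds a match of 8 bases to the seed of the ESCC miRNAs. This family, from the miR-290 and miR-302 clusters, is abundant in ESCs, and it shares the seed AAGUGC at the start of bases 2 to 8, which pairs with target sites. Mature sequences are shown, from RefSeq on GRCm38.p6, because the seed they share defines the match, and the capitals mark bases 2 to 8.
miR-291a-3p: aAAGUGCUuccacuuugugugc
miR-294-3p: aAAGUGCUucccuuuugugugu
miR-295-3p: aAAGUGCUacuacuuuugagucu
miR-302b-3p: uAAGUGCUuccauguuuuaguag
The bases searched in the UTRs were AGCACTTA, which pairs with bases 2 to 8 and has an A opposite base 1, and its first 7 or last 7 bases alone, on the sense strand only. In Lefty1 the 8-base match began at base 238 of a 3′ UTR of 425 bases, and in Lefty2 at base 104 of 1290 bases. Both windows of 30 bases are shown, from the plus strand of GRCm38, because they carry the match (capitals) and let the neighbouring bases of the paired genes be compared.
Lefty1, chr1:180938202-180938231: actgtatgcgaAGCACTTAcatgtatagat
Lefty2, chr1:180897906-180897935: cacccagtttaAGCACTTAcatgggtaaat
Of 10962 tested genes with an annotated 3′ UTR, 3.51% held the 8-base match and 20.1% held any of the matches. Smad2 held 3 matches of 7 bases, of which only the first, at base 95, lies before the end of Smad2 in the count table. No match was found in the annotated 3′ UTRs of Nodal, Tdgf1, Acvr1b, Acvr2a, Acvr2b and Smad7.

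**Figure D1:**
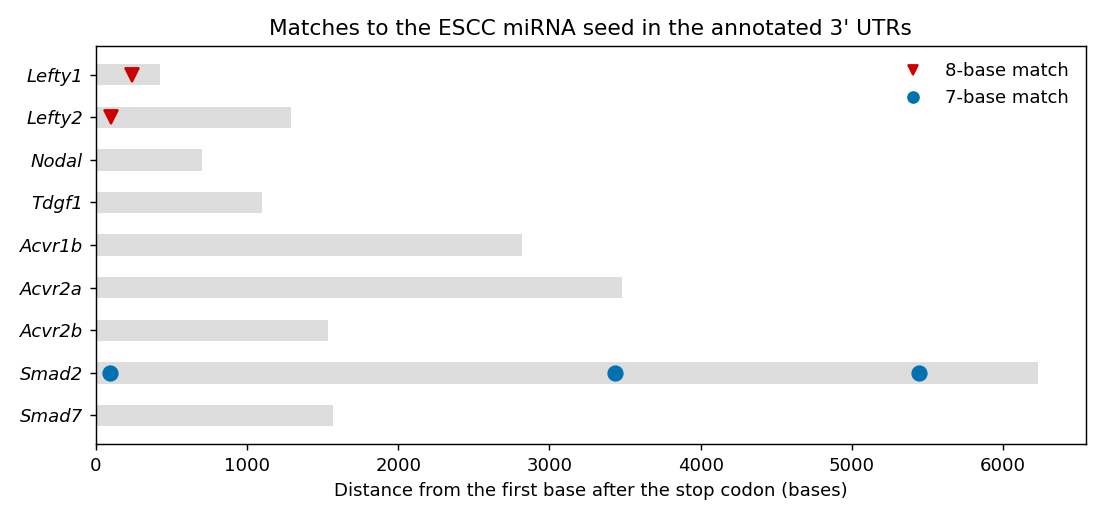
Grey bars give the length of the annotated 3′ UTR of each of the 9 genes in bases from the stop codon, triangles the 8-base matches to the ESCC miRNA seed and circles the 7-base matches. Lefty1 and Lefty2 hold 1 triangle each, Smad2 holds 3 circles, and the other 6 genes hold no match.

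Nodal (ENSMUSG00000037171, mm10 chromosome 10 from 61417972 to 61425338) encodes the ligand. It was counted at 131, 102 and 105 CPM in WT libraries 1, 2 and 3, at 168, 139 and 136 CPM in DGCR8 KO libraries, at 154 and 105 CPM in clone 1 and at 161 and 127 CPM in clone 2 of the DDX6 KO. All DGCR8 KO libraries lay above all WT libraries, while the DDX6 KO libraries overlapped both groups. The fitted log2 fold change was 0.41 (SE 0.15) in DGCR8 KO and 0.28 (SE 0.14) in DDX6 KO cells, both against WT. The group means of the ligand were 113 ± 15.6 (SD, n = 3), 148 ± 17.8 (SD, n = 3) and 137 ± 25.7 CPM (SD, n = 4) in WT, DGCR8 KO and DDX6 KO.

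Lefty1 (ENSMUSG00000038793, chromosome 1 from 180935022 to 180938400) showed the widest range of the 9. WT libraries 1, 2 and 3 stood at 96.5, 36.5 and 27.4 CPM, and the DGCR8 KO libraries at 1067, 987 and 345 CPM. The DDX6 KO libraries stood at 36.3 and 14.6 CPM in clone 1 and at 33.1 and 16.2 CPM in clone 2. Every DGCR8 KO library was above every library of the other genotypes, and DDX6 KO overlapped WT, whose library 1 was high. Each DDX6 KO library was below the WT library of its own number, but the numbers were not taken to pair libraries. DGCR8 KO library 3 was low for its group, although it remained above WT. The log2 fold change was 4.11 (SE 0.42) in DGCR8 KO against WT and -0.88 (SE 0.53) in DDX6 KO against WT, and 4.99 (SE 0.45) between the knockouts. Without DGCR8 KO library 3 the first of these was 4.63, and without WT library 1 the second was -0.45. By log2 fold change in DGCR8 KO against WT, Lefty1 ranked 23 from the highest of the 11683 genes tested.

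Lefty2 (ENSMUSG00000066652, chromosome 1 from 180893108 to 180899103), which lies on the same strand near Lefty1, separated all 3 genotypes. It was counted at 491, 322 and 280 CPM in WT, at 821, 643 and 526 CPM in DGCR8 KO, at 121 and 65.0 CPM in clone 1 and at 95.7 and 46.2 CPM in clone 2. No library of one genotype overlapped another, in the order DDX6 KO, WT, DGCR8 KO. The group means were 81.9 ± 33.0 (SD, n = 4), 364 ± 112 (SD, n = 3) and 664 ± 149 CPM (SD, n = 3) in that order. The log2 fold change was 0.92 (SE 0.22) in DGCR8 KO and -2.20 (SE 0.24) in DDX6 KO, both against WT, and 3.12 (SE 0.24) between the knockouts. By log2 fold change in DDX6 KO against WT, Lefty2 ranked 73 from the lowest of the 11683 genes tested.

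The balance of the inhibitors also differed by genotype. Lefty1 made up 16.4%, 10.2% and 8.93% of the counts of both Lefty genes in WT, 56.5%, 60.5% and 39.6% in DGCR8 KO, 23.1% and 18.3% in clone 1 and 25.7% and 26.0% in clone 2. The 3 genotypes did not overlap in this share, which followed from values already shown and was not tested. The genes are similar in sequence. Of the 50-base stretches in the last 500 bases of the annotated transcripts, which is where QuantSeq reads fall, 2.44% of those of Lefty1 and 0% of those of Lefty2 occurred in the other gene. Over whole transcripts the shares were 17.9% and 11.6%. Reads from shared stretches would not map uniquely, and their loss could not be seen in the count table.

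**Figure D2:**
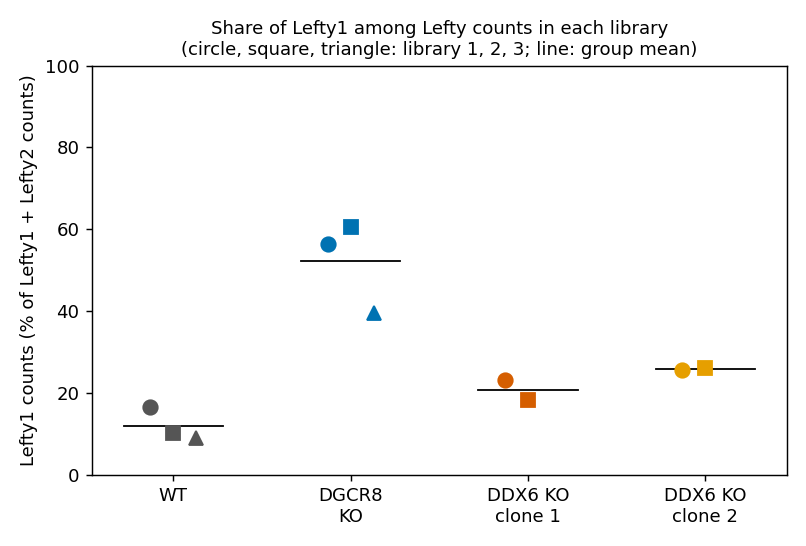
Each point is a library, and the vertical axis is the percentage of Lefty1 among the counts of Lefty1 and Lefty2, from 0 to 100. The DGCR8 KO libraries lie between 39.6% and 60.5%, above all others, and the DDX6 KO libraries between 18.3% and 26.0%, above the WT libraries.

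Both Lefty genes were among 385 tested genes with the 8-base match. The median log2 fold change of those 385 genes was 0.43 in DGCR8 KO against WT, beside -0.03 for the 8764 tested genes with an annotated 3′ UTR and no match. In DDX6 KO against WT the medians were 0.17 and 0.01. Lefty1 was the third highest of the 385 in DGCR8 KO and Lefty2 ranked 107. In DDX6 KO, where the median of the 385 genes lay above 0, Lefty2 was the second lowest and Lefty1 ranked 10 from the low end. The members' direction relative to the other genes with the match thus differed between the knockouts, and this is a description, since a match is not a measured site.

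Tdgf1 (ENSMUSG00000032494, chromosome 9 from 110939603 to 110946158), the co-receptor, varied more within genotypes than between them. It was counted at 211, 365 and 338 CPM in WT libraries 1, 2 and 3, at 196, 221 and 290 CPM in DGCR8 KO, at 132 and 335 CPM in clone 1 and at 150 and 372 CPM in clone 2. All groups overlapped. The library numbered 2 was 2.54 times the library numbered 1 in clone 1 and 2.49 times in clone 2. The log2 fold change was -0.38 (SE 0.30) in DGCR8 KO and -0.42 (SE 0.28) in DDX6 KO, each against WT. The genotypes therefore have no clear order for this gene, since the libraries of 1 clone differed more than the group means.

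Lefty1 went the other way within the DDX6 KO clones. Its library 1 was 2.48 times library 2 in clone 1 and 2.04 times in clone 2, and for Lefty2 the ratios were 1.86 and 2.07. Over 8614 tested genes averaging 10 CPM or more in DDX6 KO, 25 differed at least 2-fold between the numbered libraries in the same direction in both clones, which is 0.290%, and Lefty1 and Tdgf1 were among them. In all 4 groups, counting the clones apart, library 1 was the highest for Lefty1, Lefty2 and Nodal and the lowest for Tdgf1 and Smad2. Of all tested genes 5.56% were highest and 4.83% lowest in library 1 of all 4 groups. The share of counts from ERCC spike-in RNA, added standards, moved with the number within the DDX6 KO clones. It was 1.10% and 2.15% in libraries 1 and 2 of clone 1, and 1.23% and 2.36% in those of clone 2. Its part in these ratios was not tested, and the labels do not say what the number stands for.

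The log2 fold changes of the receptors lay at most 0.58 from 0 in every contrast of genotypes, nearer 0 than those of the Lefty genes. Acvr1b (ENSMUSG00000000532, chromosome 15 from 101174067 to 101213679), the type I receptor ALK4, was counted at 12.96, 12.3 and 10.3 CPM in WT, 11.3, 15.3 and 12.6 CPM in DGCR8 KO, 15.0 and 21.9 CPM in clone 1 and 14.1 and 15.4 CPM in clone 2. The DDX6 KO libraries lay above WT and overlapped DGCR8 KO, with a log2 fold change against WT of 0.50 (SE 0.22), and 0.17 (SE 0.25) in DGCR8 KO. Its counts were low, from 27 to 63 per library.

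Acvr2a (ENSMUSG00000052155, chromosome 2 from 48814109 to 48903269) and Acvr2b (ENSMUSG00000061393, chromosome 9 from 119402118 to 119434995) encode type II receptors that bind the ligand first. Acvr2a was counted at 12.5, 15.7 and 16.3 CPM in WT, at 19.9, 25.5 and 16.7 CPM in DGCR8 KO, and at 23.8 and 18.4 CPM in clone 1 and 26.7 and 22.4 CPM in clone 2. All knockout libraries were above all WT libraries, DGCR8 KO library 3 by the narrowest gap. The log2 fold change was 0.44 (SE 0.22) in DGCR8 KO and 0.58 (SE 0.21) in DDX6 KO against WT. Acvr2b went the other way in DDX6 KO, with 73.0, 59.6 and 57.7 CPM in WT, 63.7, 58.4 and 54.2 CPM in DGCR8 KO, 39.9 and 49.7 CPM in clone 1 and 57.0 and 46.7 CPM in clone 2. The DDX6 KO libraries lay below WT, the highest at 57.0 CPM just under the lowest WT library at 57.7 CPM, and the log2 fold change was -0.37 (SE 0.14) in DDX6 KO and -0.08 (SE 0.15) in DGCR8 KO. On the counted strand Acvr1b overlaps Mir6962, while Acvr2a and Acvr2b overlap genes on the opposite strand.

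Smad2 (ENSMUSG00000024563, chromosome 18 from 76241580 to 76305731), the receptor-activated SMAD, was counted at 42.3, 43.3 and 54.4 CPM in WT, 52.1, 63.1 and 53.4 CPM in DGCR8 KO, 45.1 and 56.7 CPM in clone 1 and 51.0 and 52.1 CPM in clone 2. All groups overlapped, and the log2 fold change was 0.24 (SE 0.15) in DGCR8 KO and 0.11 (SE 0.14) in DDX6 KO. The counts of Smad2 stop at 76305731, while its annotated 3′ UTR runs on past the match at 76310174. Reads from transcripts that end further on were therefore not counted, and these values cover the nearer ends only. Smad7 (ENSMUSG00000025880, chromosome 18 from 75367529 to 75395935), an inhibitory SMAD that blocks the receptors, was counted at 204, 165 and 199 CPM in WT and at 195, 143 and 179 CPM in DGCR8 KO. It stood at 242 and 261 CPM in clone 1 and at 272 and 220 CPM in clone 2. Every DDX6 KO library was above every library of WT and DGCR8 KO, which overlapped each other. The log2 fold change was 0.40 (SE 0.12) in DDX6 KO and -0.14 (SE 0.13) in DGCR8 KO, and -0.53 (SE 0.12) between DGCR8 KO and DDX6 KO.

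**Figure D3:**
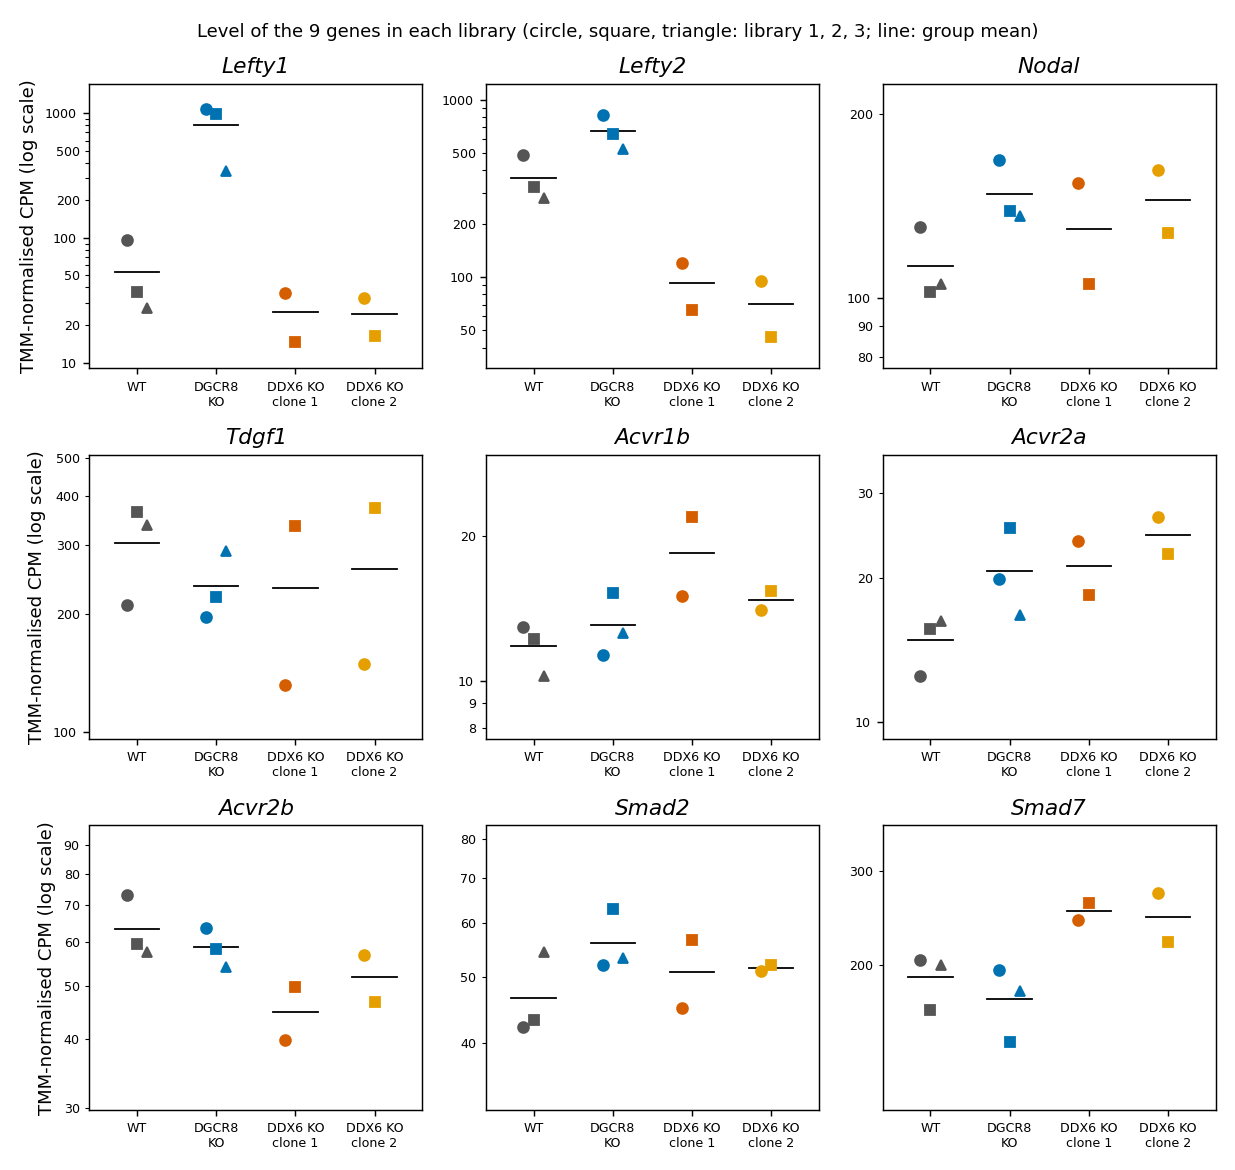
Each panel plots 1 of the 9 genes as TMM-normalised CPM on a log scale, with each library as a point (circle, square and triangle for libraries 1, 2 and 3) and the group mean as a line. The DGCR8 KO libraries of Lefty1 (345 to 1067 CPM) stand above all others, Lefty2 separates the 3 genotypes, and in the DDX6 KO clones Tdgf1 splits by library number.

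By fold alone the Lefty genes stood apart from the other members. A gene was called in a contrast at an adjusted p under 0.05 (limma-voom, Benjamini-Hochberg over all tested genes) with a log2 fold change beyond 1 in size. Lefty1 was called in DGCR8 KO against WT, 1 of 9 members beside 14.7% of all tested genes. Without WT library 1 or DGCR8 KO library 3, Lefty2 was also called there (1.13 and 1.07), which makes 2 of 9. Lefty2 was called in DDX6 KO against WT, again 1 of 9 beside 11.2%. Both were called between the knockouts, 2 of 9 beside 17.1%. The libraries did not overlap for 4 of 9 members in DGCR8 KO against WT (44.8% of all tested genes), for 5 of 9 in DDX6 KO against WT (39.9%) and for 3 of 9 between the knockouts (45.8%). Since the members were chosen with these contrasts known, the calls are no test of them. Nothing is read from these calls and counts. The median log2 fold change of the 9 was 0.24, 0.11 and 0.13 in the same order, beside 0.00, 0.02 and 0.00 over all tested genes.

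**Figure D4:**
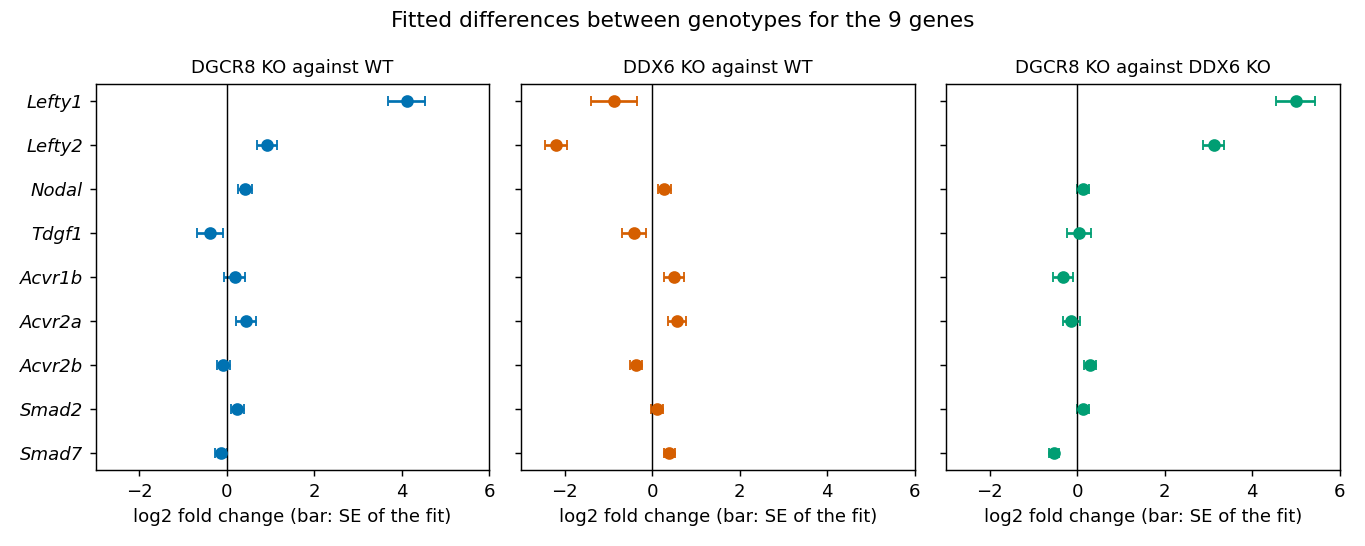
Points are fitted log2 fold changes of the 9 genes, with bars for the SE, in DGCR8 KO against WT, DDX6 KO against WT and DGCR8 KO against DDX6 KO. Lefty1 (4.11) and Lefty2 (-2.20) are the points farthest from 0 in the first and the second panel, and apart from Lefty1 and Lefty2 the genes lie at most 0.58 from 0 in every panel.

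The choice of the genes was taken to rest on the contrasts of genotypes, so a p is given for them only between the DDX6 KO clones. That is an assumption, since the clones are part of the same libraries and earlier results were known. The p values of the 9 are therefore no independent test. None of the 9 passed (limma-voom, adjusted p = 0.9997 for each), 0 had an unadjusted p under 0.05, and edgeR and DESeq2 also gave 0 on both counts. Of 33 other pathway genes tested there, 0 passed with each tool and 1 had an unadjusted p under 0.05. The fitted log2 difference of clone 2 from clone 1 was -0.02 (SE 0.82) for Lefty1, -0.44 (SE 0.36) for Lefty2, 0.17 (SE 0.19) for Nodal and 0.18 (SE 0.39) for Tdgf1, and between -0.30 and 0.21 for the other 5. With 2 libraries a clone these errors do not show that the clones were alike. Against WT, Lefty2 was lower by a log2 value of -1.97 (SE 0.30) in clone 1 and -2.41 (SE 0.31) in clone 2. Of all tested genes 0.0428% were called between the clones, which is 5 genes, and 284 had an unadjusted p under 0.05. The 5, named after their values were seen, were all lower in clone 2: Ddx6 itself, Rhox5 and the Y-linked Uty, Ddx3y and Eif2s3y, of which Uty had 0 counts in clone 2.

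The other genes of the pathway, 47 in a list by role, were tested in the same fit. Of these, 33 passed the filter on low values, and 27 of the 33 reached 3 CPM in all WT libraries. The other 6 were Gdf11, Tgfb2, Tgfbr2, Dand5, Ldlrad4 and Gsc. Gdf11 and Tgfbr2 lay under 3 CPM in every WT library, so they were tested only because knockout libraries were higher. Tgfb2 and Ldlrad4 reached 3 CPM in WT only in library 1 and also needed knockout libraries. A rise thus helped these genes to be tested, and their p against WT is no independent support for it. Gsc reached 3 CPM only in WT and DGCR8 KO libraries, so the same holds for its lower level in DDX6 KO. The 14 that could not be tested were the ligands Gdf1, Inhba, Inha, Mstn, Tgfb1 and Tgfb3, the receptor genes Cfc1 and Acvr1c, the antagonists Cer1 and Fstl3, the transcription factor Foxh1 and the target genes Mixl1, T and Foxa2. Gdf1, Inhba, Mstn and Acvr1c had 0 counts in every library, which allows up to 0.669 to 1.44 CPM in a library.

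In DGCR8 KO cells 8 of the 33 were called, all 8 higher, beside 14.7% of all tested genes, and 13 passed on the adjusted p alone (12 higher, 1 lower), beside 36.3%. The 8 include Gdf11, Tgfb2 and Ldlrad4, which needed knockout libraries to pass the filter. In DDX6 KO cells 6 were called, 4 higher and 2 lower, beside 11.2%, and 9 passed on the adjusted p alone (5 higher, 4 lower), beside 34.5%. The 4 higher include Tgfb2 and Tgfbr2, which likewise needed knockout libraries to pass the filter. The 2 lower include Gsc, which passed it only through WT and DGCR8 KO libraries. Between the knockouts 8 were called, 6 higher and 2 lower in DGCR8 KO, beside 17.1%, and 17 passed on the adjusted p alone (15 higher in DGCR8 KO), beside 44.0%. The median log2 fold change over the 33 was 0.31, 0.07 and 0.35 in these contrasts, beside 0.00, 0.02 and 0.00 over all tested genes.

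Among the other ligands, Gdf11, which shares the activin receptors, rose in DGCR8 KO, from 2.40, 1.70 and 2.68 CPM in WT to 13.2, 11.2 and 8.15 CPM (log2 fold change 2.18, SE 0.42, limma-voom adjusted p = 0.000484). It passed the filter on low values only through knockout libraries. In DDX6 KO it stood at 2.09 to 5.13 CPM, which did not pass against WT (adjusted p = 0.221), and the knockouts differed by 1.45 (SE 0.33, adjusted p = 0.00155). Inhbb, the βB subunit of activin B, had the reverse pattern. It rose in DDX6 KO to 24.9 and 49.4 CPM in clone 1 and 27.4 and 58.2 CPM in clone 2, from 5.28, 4.77 and 7.13 CPM in WT (log2 fold change 2.67, SE 0.48, adjusted p = 0.000383). In DGCR8 KO it stood at 5.51, 11.5 and 23.6 CPM, which did not pass (adjusted p = 0.247), and it was lower there than in DDX6 KO by a log2 difference of -1.80 (SE 0.39, adjusted p = 0.00101). Its libraries also split by number in the DDX6 KO clones, in the direction of Tdgf1. Tgfb2, a TGF-β ligand, rose in both knockouts, with log2 fold changes of 1.62 (SE 0.50, adjusted p = 0.0155) in DGCR8 KO and 1.46 (SE 0.48, adjusted p = 0.0259) in DDX6 KO, but WT library 1 overlapped both. Its call was lost in DGCR8 KO without WT library 3 (1.18) or without DGCR8 KO library 1 (1.45). In DDX6 KO it was lost without WT library 2 (1.34), WT library 3 (1.01) or either library of clone 2 (1.26 and 1.28), and with clone 1 alone (0.85).

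Of the receptors, Tgfbr2, the type II receptor for TGF-β, rose in DDX6 KO on few counts, from 1, 4 and 1 counts in WT to 27, 19, 12 and 20 counts. By summed counts the ratio was 10.3 (95% exact interval 4.51 to 28.9, counting error only), and the fitted log2 fold change was 3.27 (SE 0.72, limma-voom adjusted p = 0.00199). Tgfbr2 too passed the filter on low values only through knockout libraries. DGCR8 KO had 8, 15 and 2 counts. The difference between the knockouts, -1.35 (SE 0.51, adjusted p = 0.0401), was lost when any of 5 libraries was left out (DGCR8 KO libraries 1 and 3, both of clone 1 and library 2 of clone 2, with values from -0.80 to -1.41), with clone 2 alone (-1.02), with edgeR (-1.18) or DESeq2 (-1.23), and with no filter on low values (-1.38). Pcsk6, a convertase that cleaves the Nodal precursor, fell in DDX6 KO. It stood at 141, 78.4 and 89.4 CPM in WT, at 81.4, 52.3 and 63.9 CPM in DGCR8 KO and at 34.1 to 50.5 CPM in DDX6 KO, and the log2 fold change was -1.22 (SE 0.20, adjusted p = 0.000176) in DDX6 KO and -0.58 (SE 0.20, adjusted p = 0.0330) in DGCR8 KO.

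Fstl1, a follistatin-related protein placed in the list of secreted antagonists, rose in both knockouts, and its effect on Nodal or activin was not tested. It was counted at 280, 200 and 173 CPM in WT, 1073, 1016 and 592 CPM in DGCR8 KO, and 389 to 712 CPM in DDX6 KO, with no overlap between WT and either knockout. The log2 fold change was 2.05 (SE 0.24, limma-voom adjusted p = 2.65e-06) in DGCR8 KO and 1.29 (SE 0.23, adjusted p = 0.000321) in DDX6 KO. Fst, follistatin itself, which binds activin, rose in DGCR8 KO to 22.4, 38.3 and 21.6 CPM from 15.8, 15.7 and 10.03 CPM in WT (log2 fold change 1.04, SE 0.27, adjusted p = 0.00597). Its fold lay near the threshold, and the call was lost without WT library 3 (0.74) or DGCR8 KO library 2 (0.77), and with DESeq2 (0.99), limma-trend (0.93) or no filter on low values (0.99).

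Of 12 intracellular inhibitors, 2 were called in DGCR8 KO (14.7% of all tested genes) and 0 in DDX6 KO (11.2%) by limma-voom. In DDX6 KO, 3 had an unadjusted p under 0.05, and edgeR and DESeq2 gave the same counts. The genes that passed on the adjusted p but under the fold threshold are named after their values were seen. In DGCR8 KO they were Skil (log2 fold change 0.61, limma-voom adjusted p = 0.0117), Smurf2 (0.41, adjusted p = 0.0345) and Pmepa1 (0.47, adjusted p = 0.00938), so that 5 of 12 passed, all higher, beside 36.3% of all tested genes. In DDX6 KO they were Tgif2 (-0.59, adjusted p = 0.00253) and Ppm1a (-0.31, adjusted p = 0.0361), 2 of 12 beside 34.5%. Smad6, an inhibitory SMAD related to Smad7, rose from 6.24, 9.54 and 7.80 CPM in WT to 21.1, 20.7 and 13.03 CPM in DGCR8 KO (log2 fold change 1.19, SE 0.29, limma-voom adjusted p = 0.00356). In DDX6 KO it stood at 5.32 to 10.9 CPM, and the knockouts differed by 1.19 (SE 0.27, adjusted p = 0.00142). That difference was 0.96, under the fold threshold, without library 2 of clone 2. Ldlrad4, which restrains SMAD activation, was at 7, 1 and 5 counts in WT and rose to 22, 16 and 27 counts in DGCR8 KO (log2 fold change 2.61, SE 0.61, adjusted p = 0.00247). DDX6 KO had 5 and 5 counts in clone 1 and 14 and 14 in clone 2. Against WT the 4 together did not pass (1.33, SE 0.65, adjusted p = 0.120), while clone 2 fitted apart was called (1.89, SE 0.64, adjusted p = 0.0392) and clone 1 was not (0.69, SE 0.77). The clones did not pass against each other (adjusted p = 0.9997). The difference of DGCR8 KO from DDX6 KO (1.28, SE 0.44, adjusted p = 0.0238) was lost with clone 2 alone (0.72), without DGCR8 KO library 3 (1.04) or without either library of clone 1 (1.09 and 1.06).

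Of 7 target genes 4 were tested. Gsc, a homeobox gene of the organizer, had 3, 14 and 15 counts in WT, 13, 8 and 14 counts in DGCR8 KO, and 3, 1, 1 and 7 counts in DDX6 KO. It was lower in DDX6 KO than in WT by a log2 value of -1.77 (SE 0.61, adjusted p = 0.0322), and by summed counts WT was 3.37 times DDX6 KO (95% exact interval 1.69 to 7.19). Leaving out WT library 2 or 3, either library of clone 1, or library 1 of clone 2 ended the call (-1.48 to -1.89), as did fitting either clone alone (-2.01 and -1.55). Between the knockouts it was higher in DGCR8 KO by 2.08 (SE 0.60, adjusted p = 0.00862), a call lost with clone 2 alone (1.86). Gsc reached 3 CPM only in WT and DGCR8 KO libraries. Its p values are thus no independent support for a lower level in DDX6 KO.

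**Figure D5:**
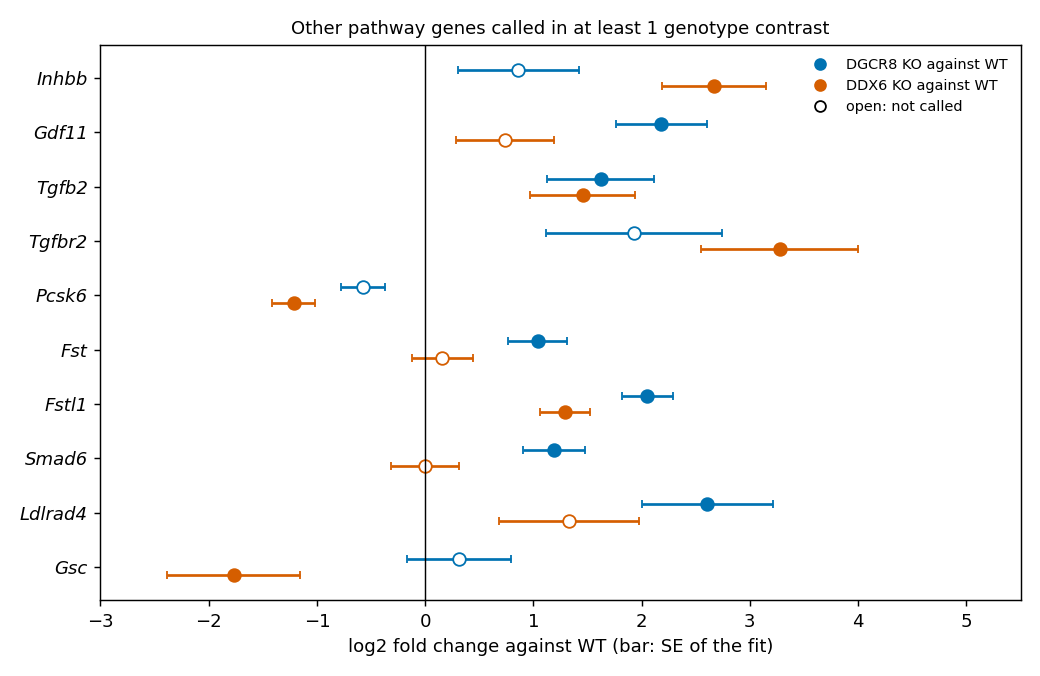
Points are fitted log2 fold changes against WT of 10 other pathway genes called in at least 1 contrast of genotypes, with bars for the SE, for DGCR8 KO (blue) and DDX6 KO (orange), and open points were not called. Tgfb2 and Fstl1 are filled in both knockouts, and Pcsk6 and Gsc are the genes with filled points below 0.

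Genes with the pattern most like that of 4 members were found by Pearson's r of log2 CPM over the 10 libraries, among 8335 tested genes averaging 10 CPM or more. The libraries fall into 3 genotypes, which alone can give a high r, and r is a description with no test. For Lefty1 they were Traf3ip2 (r = 0.992), Dpp4 (0.991) and Prtg (0.990). Dpp4, a cell surface peptidase, stood at 19.6 to 37.0 CPM in WT, 95.7 to 141.5 CPM in DGCR8 KO and 15.4 to 22.3 CPM in DDX6 KO. For Lefty2 they were Lmo7 (0.994), Mllt3 (0.985) and Cenpv (0.980), and Lmo7 was lower in DDX6 KO (34.4 to 62.3 CPM) than in WT (107 to 163 CPM) and DGCR8 KO (152 to 198 CPM). For Nodal they were Otud7b (0.942), Fzd2 (0.942) and Egr1 (0.925). Egr1, an immediate early transcription factor, had 8.52 to 18.2 CPM in WT, 47.2 to 252 CPM in DGCR8 KO and 20.4 to 189 CPM in DDX6 KO. For Tdgf1 they were Isoc2a (0.913), Alg5 (0.910) and Timm10 (0.901), whose ranges in the 3 genotypes overlapped.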

How the data were processed

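QuantSeq 3′ FWD libraries from 10 samples (3 WT, 3 DGCR8 KO, 2 for each of 2 DDX6 KO clones, grouped by title) were analysed from the deposited counts, which the authors made as raw whole-number read counts per gene. The submitters' processing notes name cutadapt 1.14, STAR 2.5.3a, featureCounts 1.5.3 and mm10. Per the file headers the authors counted reads in exons on the sense strand with a Gencode annotation and 92 ERCC spike-ins, which were left out of library sizes. Symbols came from Gencode names matched by gene identifier (51274 of 51467). No molecular identifiers are stated, so floors and intervals cover counting error only.

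The members, the lists and the rules were chosen with earlier results of these data known. Counts were scaled by TMM (edgeR 4.0.16) and fitted by limma-voom (limma 3.58.1, R 4.3.3) with genotype as the only term over all 10 libraries, the 4 DDX6 KO libraries counted as 4 although they come from 2 clones, and again with a group for each clone. Genes needed at least 3 CPM in at least 3 libraries. Tests were two-sided and adjusted by Benjamini-Hochberg. The fit was tested on simulated counts and called most genes changed by a known fold. Text names the 9 members, other pathway genes called in a contrast of genotypes or untestable, and, for Lefty1, Lefty2, Nodal and Tdgf1, the 3 genes of highest r that average 10 CPM or more and have a symbol other than a predicted gene, clone or pseudogene. Genes that are counted in the lists but not named are not reported here. Seed matches were searched in the 3′ UTR of 1 coding transcript per gene (a later Gencode release of the same build, GRCm38). Alternatives were edgeR, DESeq2 1.42.0, limma-trend, other scalings and filters, each clone alone, each library left out and a replicate block.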

Additional observations from a re-analysis of the deposited data

Results flagged for a closer look

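In the DDX6 KO group of 4 libraries, Acvr1b in clone 1 library 2 stood far above the other 3, with a gap of 0.832 of the group's range, just past Dixon's critical value. This rule flags about 1 group in 20 by chance, and 9 genes were examined. All DGCR8 KO libraries lay above the WT mean and all DDX6 KO libraries below it for Lefty1 and Lefty2, whose fitted log2 differences between the knockouts were 4.99 and 3.12. These are given with no p, since the genes were chosen with the contrast known.

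Of 33 other pathway genes tested, 8 were called in the test of DGCR8 KO against DDX6 KO itself (limma-voom), beside 17.1% of all tested genes. On the adjusted p alone 17 passed, beside 44.0%. Of the 8 called, 6 are named. The level was higher in DGCR8 KO for Gdf11 (log2 difference 1.45), Smad6 (1.19), Ldlrad4 (1.28) and Gsc (2.08). It was lower there for Inhbb (-1.80) and Tgfbr2 (-1.35).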

How the results depend on the processing

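The 27 log2 fold changes of the 9 members in the contrasts of genotypes moved by less than the spread between libraries under all 522 alternatives run for them. Of the 27, 5 values near 0 (Acvr2b and Smad7 in DGCR8 KO against WT, and Nodal, Tdgf1 and Smad2 between the knockouts) were at 0 or of the opposite sign under 13 of these. On the adjusted p alone the genes called numbered 4245, 4032 and 5144 in DGCR8 KO against WT, DDX6 KO against WT and DGCR8 KO against DDX6 KO, in place of 1722, 1310 and 1997, and the other pathway genes 13 and 17 in the first and the last, in place of 8 and 8. With at least 10 CPM, which tests fewer genes, 822 and 1316 genes were called in the second and the third, and 4 other pathway genes in the third. Leaving out 1 library gave 1531 to 1716, 980 to 1322 and 1729 to 2031 genes called, 7 to 9, 4 to 6 and 6 to 8 other pathway genes, and 3 to 5 genes between the clones. The count between the clones was 3 without clone 1 library 2 or either library of clone 2, fits in which the lone library of a clone was assumed to vary like the other groups. Of 18 calls of the other pathway genes named, 10 kept their call throughout, and 8 lost it under 38 of 340 alternatives. Total-count scaling moved the median log2 fold change of all genes in DDX6 KO against WT from 0.02 to 0.15, so that each value there is to be read relative to that shift.

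Whether replicate numbers pair libraries was checked by the correlation of deviations from group means. Over 13 pairs with the same number it ran from -0.05 to 0.28, and 9 pairs were above 0.1. The numbers were not taken to pair the libraries, since the labels do not say what they stand for and not every pair was above 0.1. All 10 libraries nevertheless correlated best with a library of their own number, a hint from the data and not from the design. For the 4 DDX6 KO libraries that was the other clone (0.20), the same value for both numbers, since deviations of 2 libraries mirror each other. DDX6 KO libraries numbered 2 correlated better with WT and DGCR8 KO libraries numbered 3 (0.10 to 0.17) than with those numbered 2 (-0.05 to 0.07). With the replicate number as a block, 1749, 1200 and 1978 genes were called in the 3 contrasts and 6 between the clones, and 9, 4 and 9 other pathway genes. In that block Lefty1 was at -1.42 and Tdgf1 at -0.24 in DDX6 KO against WT. Lefty1 was called there, which makes 2 of 9 members in place of 1, and nothing is read from this count. Inhbb was at 3.39 and Tgfbr2 at 2.44 there, each over 1.5 times from the value without the block. Fst in DGCR8 KO (0.94), Tgfb2 (1.25) and Gsc (-1.56) in DDX6 KO and Tgfbr2 between the knockouts (-0.72) were not called in it.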
